A study of Mus musculus with 3 samples.

Results

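The genes described here are 10 feedback inhibitors and transcriptional targets of canonical Wnt signalling: Axin2, Nkd1, Nkd2, Dkk1, Dkk4, Notum, Kremen1, Wif1, Sostdc1 and Sp5. They were taken as all probe sets annotated with exactly 1 of these symbols, which gave 18 of the 28898 probe sets with a single gene, and 10 of 17097 genes. RNA was measured on 3 Affymetrix arrays, from Lgr5-IRES-GFP mouse embryos at embryonic day 14. Mammary cells were sorted for a strong green Lgr5 reporter and much CD49f, the integrin alpha 6 chain on their surface, and each array stood for the female embryos of 1 litter, pooled. All 3 arrays belong to 1 group, so no treated, mutant or other sorted population was compared, and strain and zygosity are not given in the sources used here. The sort started from digested epidermis together with mammary gland, and gave 813 or 2000 cells for an array.

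Canonical Wnt ligands bind Frizzled receptors and the co-receptors Lrp5 and Lrp6, which stabilises beta-catenin and lets it activate genes together with Tcf and Lef factors. Several of the activated genes encode inhibitors of the same pathway, which makes a negative feedback loop. The mammary bud of the mouse embryo forms under Wnt signalling, and Lgr5, whose reporter was used for the sort, is itself a gene that Wnt signalling induces. Axin2 and Sp5 serve as reporters of pathway activity in many mouse tissues.

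Tcf and Lef factors recognise a short motif, and the promoters of the pathway's own target genes are shown here because they may carry it. The upstream 250 bases of the RefSeq gene start (GRCm38.p6) were searched on both strands for CTTTG followed by a pair of bases that are each A or T, which makes 4 motifs. Promoters of 6 of the 10 genes were matched by symbol, those of Axin2, Nkd1, Nkd2, Dkk1, Wif1 and Sp5. A match was found for 2 of the 6 genes, Sp5 and Dkk1, against 16.8% of the 27025 genes in the promoter table. The sequences run 5′ to 3′ on the strand of the gene, and capitals mark the matches. Sp5 (chr2:70474673-70474922, plus strand) had 2 matches, and Dkk1 (chr19:30549497-30549746, minus strand) also had 2. The Axin2 promoter (chr11:108920099-108920348, plus strand) had none in this window and is shown for comparison.
Sp5: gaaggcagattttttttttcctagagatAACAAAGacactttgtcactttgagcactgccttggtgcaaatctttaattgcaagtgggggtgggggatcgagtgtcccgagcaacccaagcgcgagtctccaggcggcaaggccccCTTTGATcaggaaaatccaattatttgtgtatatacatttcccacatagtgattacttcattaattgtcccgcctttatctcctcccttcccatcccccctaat
Dkk1: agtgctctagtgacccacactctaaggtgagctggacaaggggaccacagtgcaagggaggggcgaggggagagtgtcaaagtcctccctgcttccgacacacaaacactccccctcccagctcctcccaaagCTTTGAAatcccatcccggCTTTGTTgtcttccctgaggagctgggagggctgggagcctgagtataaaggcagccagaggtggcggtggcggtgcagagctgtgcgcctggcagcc
Axin2: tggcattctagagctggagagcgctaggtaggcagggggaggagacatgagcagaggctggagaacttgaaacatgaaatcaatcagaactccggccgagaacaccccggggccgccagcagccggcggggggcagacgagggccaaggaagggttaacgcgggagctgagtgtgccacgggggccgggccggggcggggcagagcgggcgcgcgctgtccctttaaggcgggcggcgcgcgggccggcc
In Sp5 the match nearest to the gene start was CTTTGAT, 104 to 98 bases before it, and the other was CTTTGTT on the opposite strand, 222 to 216 bases before it. In Dkk1, CTTTGAA lay 117 to 111 bases and CTTTGTT 98 to 92 bases before the start. A match describes the letters of the sequence and does not show binding.

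The arrays did not resemble each other equally. Over 45141 probe sets, replicates 1 and 2 correlated with r = 0.994, and replicate 3 correlated with them at r = 0.942 and r = 0.944. The median log2 value was 6.25 on replicates 1 and 2 and 6.52 on replicate 3, so their value distributions differed. Results are therefore given also without replicate 3, and with replicates 1 and 2 averaged as 1 sample. Without replicate 3 only the closely alike arrays remain. A p from that fit leaves out the spread between replicate 3 and the others, so it is not comparable with a p from 3 arrays. The markers of the sorted cells were present: all 10 genes of the epithelial list were above background, among them Krt5 (12.15 ± 0.16, SD, n = 3), Krt14 (11.38 ± 0.25), Itga6 (10.37 ± 0.40), Epcam (10.31 ± 0.40) and Lgr5 (10.27 ± 0.44), the last being the gene of the sort. Of 13 mesenchymal markers 11 were above background as well, including Col1a1 (12.99 ± 0.15) and Pdgfrb (8.84 ± 0.20). Pdgfra (4.89 ± 0.55) and Tbx18 (6.36 ± 0.16) were not. The summed level of that list of 13 genes on a linear scale was 28344, 25576 and 24157 on replicates 1, 2 and 3. For the 10 epithelial genes the sum was 12713, 15820 and 17896, lower on each array and rising where the mesenchymal sum fell. These sums cover unequal numbers of genes and depend mostly on the brightest ones. The median log2 value of the epithelial list was 9.99, 10.18 and 10.76 on replicates 1, 2 and 3. That of the mesenchymal list was 10.19, 9.89 and 10.19, so by the median the epithelial list was higher on replicates 2 and 3. Of the hair placode list 6 of 10 were above background, with Shh at 6.76 ± 0.12 and Edar at 8.21 ± 1.0. Lhx2 (4.67 ± 0.13) and Sox2 (4.05 ± 0.39) were not. The log2 excess over the background threshold ran from -2.2 to 3.23 in that list. Lists for other cell types reached 3 of 11 (suprabasal epidermis), 2 of 7 each (endothelium, leukocytes and skeletal muscle) and 3 of 8 (melanocytes and nerve). Of all genes tested, 52.5% were above background by the threshold described below, and these counts stand beside that share. Several of the 10 Wnt genes are known in dermal or hair follicle cells of the mouse too, and the part of such cells in their signal was not tested. In these pooled cells, a smaller share of expressing cells and less RNA per cell cannot be told apart.

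With no second group, each gene was set against a background level of its own array, the 95th percentile of 79 olfactory, vomeronasal and trace amine receptor genes. This threshold was a log2 value of 6.29, 6.23 and 6.22 on replicates 1, 2 and 3. A gene was called above background when the limma test of its mean log2 excess over the threshold gave a Benjamini-Hochberg adjusted p under 0.05 over all 17097 genes. Of the 10 genes, 7 were above background: Axin2, Nkd1, Nkd2, Dkk4, Notum, Kremen1 and Sostdc1. The share over all genes was 52.5%. The median excess of the 10 was 1.36, against 0.64 over all genes. Dkk1, Wif1 and Sp5 were not called, although each lay over the threshold on 3 of 3 arrays. By probe set, 14 of 18 were above background, against 46.9% of all probe sets with a single gene.

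**Figure D1:**
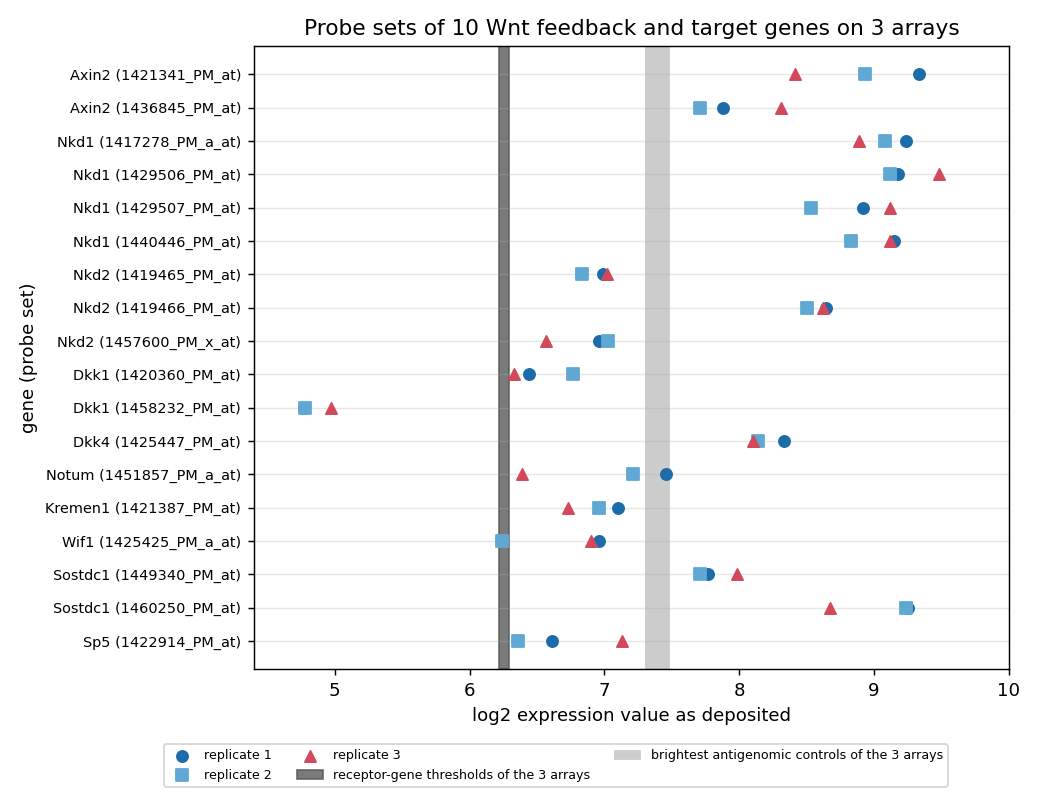
Log2 expression value (x axis) of each of the 18 probe sets (y axis) on replicates 1, 2 and 3. The dark band spans the receptor-gene thresholds of the 3 arrays (6.22 to 6.29) and the light band their brightest antigenomic controls (7.31 to 7.48). The 4 Nkd1 probe sets lie right of both bands on every array, and the Sp5, Wif1, Kremen1 and first Dkk1 probe sets lie in or between the bands on all arrays.

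Among the inhibitors that act inside the cell, all 3 were far above background. Axin2 is a scaffold of the complex that marks beta-catenin for destruction, and its gene is a broadly used Wnt target. On replicates 1, 2 and 3 its first probe set read 9.33, 8.93 and 8.41 (log2), a mean of 8.89 ± 0.46 (SD, n = 3). Replicate 1 was the highest and replicate 3 the lowest, and all 3 lay at least 2.19 over their thresholds. The mean excess was 2.64 (limma adjusted p = 0.000148). A second Axin2 probe set had 7.88, 7.71 and 8.31, with replicate 3 the highest, and was above background too (limma adjusted p = 0.000698 over all probe sets).

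Nkd1 and Nkd2 encode the Naked cuticle proteins, which bind Dishevelled and dampen the signal from the receptor. The probe set that represents Nkd1 read 9.18, 9.12 and 9.48 (log2, replicates 1, 2 and 3), an excess of 3.01 (limma adjusted p = 3.74e-05). The other Nkd1 probe sets had means of 9.07, 8.86 and 9.03. All 4 thus stood between 8.53 and 9.48 on the 3 arrays. Nkd2 had log2 values of 8.64, 8.50 and 8.62, an SD of 0.07 (n = 3) and an excess of 2.34 (limma adjusted p = 5.59e-05). Its other probe sets were dimmer, at means of 6.95 and 6.85. Both were above background (limma adjusted p = 0.00596 and 0.0158 over all probe sets), and the dimmest carries the mark for possible cross-hybridisation. Both Naked genes were thus measured above background in the same pools.

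Of the 2 secreted Dickkopf inhibitors, Dkk4 was above background and Dkk1 was not called, and the difference between them was not tested. The Dkk1 and Dkk4 proteins bind Lrp5 and Lrp6 and keep them from Wnt ligands. Dkk4, a gene of ectodermal placodes in the mouse embryo, read 8.33, 8.14 and 8.10 (log2, replicates 1, 2 and 3). The values spanned 0.23 as deposited and 0.50 with each array centred on its median, and the excess was 1.94 (limma adjusted p = 0.000107). Dkk1, which blocks mammary bud formation when overexpressed in mouse skin, had 6.44, 6.77 and 6.33. These values were 0.15, 0.54 and 0.11 over the thresholds, and the excess of 0.27 did not pass (limma adjusted p = 0.12). The second Dkk1 probe set lay below the threshold on every array, at 4.77, 4.78 and 4.97. Dkk1 passed with the 74 receptor genes that are neither pseudogenes nor trace amine receptors as background (limma adjusted p = 0.0272), and without replicate 3 (0.0158, with an excess of 0.34). Kremen1, a surface receptor that removes Lrp6 together with Dickkopf proteins, had 7.10, 6.96 and 6.73, an excess of 0.68 (limma adjusted p = 0.00511). It lost its call without replicate 1 (0.0608) or replicate 2 (0.0529), and with replicates 1 and 2 averaged (0.0593).

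The other extracellular inhibitors act on the ligand or the co-receptor. Sostdc1 encodes a secreted protein that binds Lrp co-receptors and Bmp ligands, and its loss in mice alters the mammary buds. Its brighter probe set read 9.25, 9.24 and 8.67 (log2, replicates 1, 2 and 3), an excess of 2.81 (limma adjusted p = 6.94e-05). Its dimmer one had 7.77, 7.71 and 7.98. Replicate 3 was the lowest by the brighter and the highest by the dimmer probe set, and both were above background.

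Notum encodes an enzyme that removes the lipid from Wnt ligands and so inactivates them. Its probe set read 7.46, 7.21 and 6.39 (log2, replicates 1, 2 and 3), the widest range of the 10 genes (1.07). Replicate 3 was only 0.17 over its threshold, against 1.16 and 0.98 on replicates 1 and 2. The mean excess of 0.77 passed (limma adjusted p = 0.0226), and the call was lost without replicate 1 (0.082) or replicate 2 (0.0507), and with both averaged (0.0666). Without replicate 3 the excess was 1.07 and the call held (limma adjusted p = 1.5e-05), in a fit that rests on the closely alike replicates 1 and 2 only. Wif1, which encodes a secreted protein that binds Wnt ligands, had 6.96, 6.24 and 6.90. Replicate 2 was 0.01 over its threshold, and the excess of 0.45 did not pass (limma adjusted p = 0.058). It passed without replicate 2 (0.048) and with the 74 receptor genes as background (0.0346).

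Sp5, a zinc finger transcription factor gene that Wnt signalling activates directly in several mouse tissues, had the promoter matches shown above. It read 6.61, 6.36 and 7.13 (log2, replicates 1, 2 and 3). Replicate 3 was the highest, 0.92 over its threshold, against 0.32 and 0.13 on the others. The excess of 0.46 did not pass (limma adjusted p = 0.0635), but the gene was called with the 74 receptor genes as background (0.0387). It was also called without replicate 3 (0.0318), with a smaller excess of 0.23. Its paralog Sp8 had a single probe set below the threshold on every array, at 5.49, 5.51 and 5.64.

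The 10 genes fell into 2 sets by how they stood against stricter backgrounds. Axin2, Nkd1, Nkd2, Dkk4 and Sostdc1 were above background in all 16 alternative settings, not all of which were stricter than the main one. Their excess over the brightest of 23 antigenomic control probe sets, the strictest of these, was between 0.80 (Dkk4) and 1.88 (Nkd1). This holds for the probe set that represents each gene. By probe set, 10 of the 18 were called with that control. The dimmer Nkd2 probe sets (means 6.95 and 6.85) lay below it on every array. Dkk1, Notum, Kremen1, Wif1 and Sp5 lay below that control, by 0.37 for Notum and up to 0.87 for Dkk1 on the log2 scale. The count of the 10 above background was 5 with that control (31.6% of all genes), and 5 with tissue-restricted genes as background (33.5%). It was 10 with the 74 receptor genes (55.1%), 9 without replicate 3 (56.4%), and 5 with replicates 1 and 2 averaged (50.3%).

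**Figure D2:**
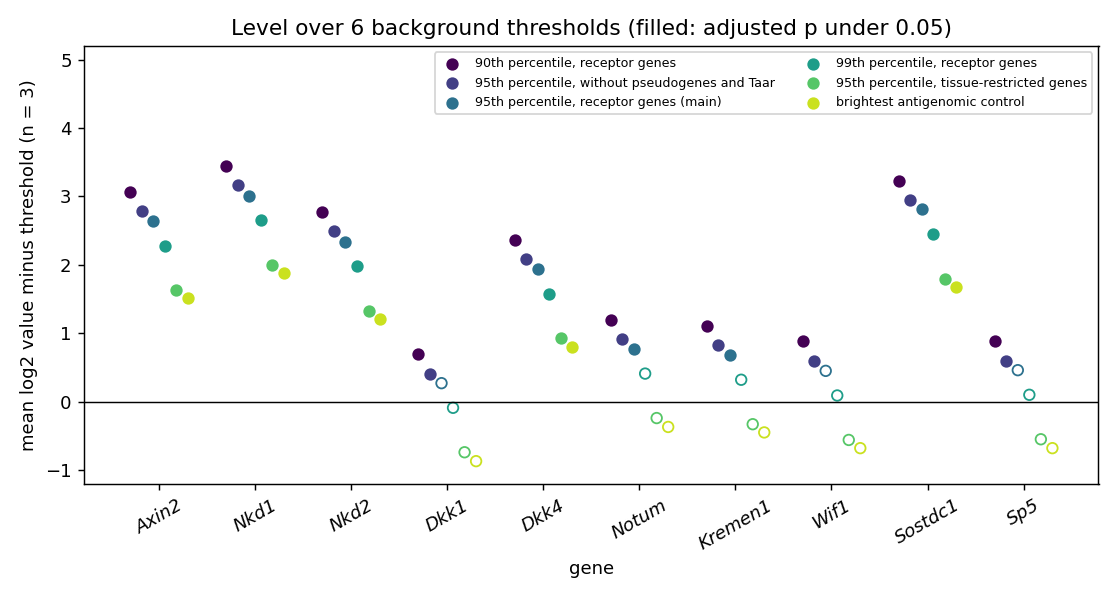
Mean log2 value minus threshold over 3 arrays (y axis) for each of the 10 genes (x axis) under 6 background thresholds. Filled points have an adjusted p under 0.05. Axin2, Nkd1, Nkd2, Dkk4 and Sostdc1 stay above 0 and filled under all 6, while the other 5 genes fall below 0 against the brightest antigenomic control.

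Differences between litters are a description, since each litter was 1 array. Of the 7 genes above background, 5 had a lower log2 value on replicate 3 than the mean of replicates 1 and 2, against 31.8% of all 8984 genes above background. The difference was -0.95 for Notum, -0.72 for Axin2, -0.57 for Sostdc1, -0.30 for Kremen1 and -0.14 for Dkk4. It was 0.33 for Nkd1 and 0.05 for Nkd2, while the median over all genes above background was 0.26. Of those genes, 1.51% stood further below on replicate 3 than Notum, and 3.9% further than Axin2. The 5 genes were lower on replicate 3 under both other scalings too, while Nkd1 and Nkd2 were at -0.10 and -0.37 under quantile normalization of the 3 arrays. With each array centred on its median, 6 of the 7 genes were lower on replicate 3, against 51.1% of all genes above background, and with quantile normalization 7 of 7, against 59.7%.

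Probe sets of 1 gene did not settle the direction on replicate 3. Axin2, Nkd1, Nkd2 and Sostdc1 had several probe sets above background, and in 4 of these 4 genes the probe sets differed in sign. For Axin2 they gave -0.72 and 0.51, and for Sostdc1 -0.57 and 0.24. Over all 3135 genes with several probe sets above background, 39.2% differed in sign, without matching on the number of probe sets, which was 4 for Nkd1. With each array centred on its median, 2 of the 4 genes differed in sign (Axin2 and Nkd1), against 46.9% of all such genes. All probe sets of Sostdc1 and of Nkd2 were then lower on replicate 3. Notum, Dkk4 and Kremen1 had 1 probe set each, so no second one could be set beside their lower value. The actin control probe sets gave a 3′ minus 5′ difference of -0.56, -0.56 and -0.40 on replicates 1, 2 and 3. Its part in the differences was not tested.

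**Figure D3:**
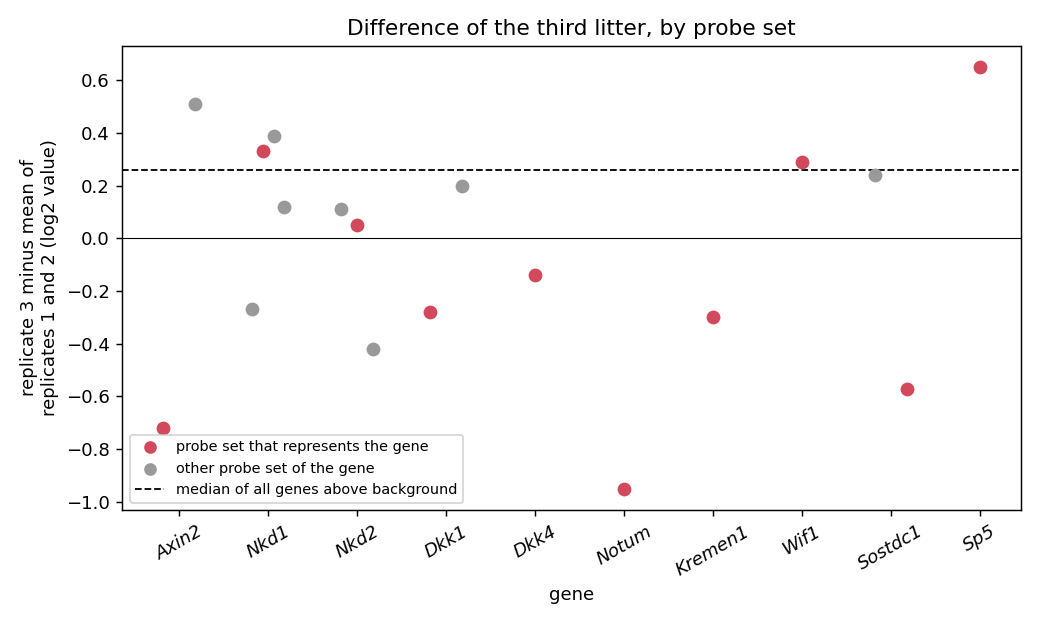
Log2 value on replicate 3 minus the mean of replicates 1 and 2 (y axis) for each probe set of the 10 genes (x axis). Red points represent the gene, grey points are its other probe sets, and the dashed line is the median of all genes above background (0.26). Red and grey points of Axin2 and of Sostdc1 lie on opposite sides of 0.

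Between replicates 1 and 2, which resembled each other, the median absolute difference of the 7 genes was 0.14, against 0.12 over all genes above background. Wif1 differed most among the 10 (0.72 higher on replicate 1), followed by Axin2 (0.40 higher on replicate 1). The range over the 3 arrays depended on the scaling. Its median was 0.37 for the 7 genes on the deposited scale, against 0.48 over all genes above background. With each array centred on its median it was 0.64 for the 7 genes, against 0.45, and under quantile normalization 0.67, against 0.45. Nkd2 had the smallest range of the 10 genes as deposited (0.14), and Nkd1 with centred arrays (0.09) and under quantile normalization (0.13), where Nkd2 had 0.29 and 0.44.

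Other genes of the pathway put these values in context. The lists were read with the same fit, and their counts stand beside the 52.5% of all genes. Transcripts of proteins that the products of the 10 bind, act on or are regulated by were above background for 11 of 11 genes, with a median excess of 2.67. They include the co-receptor genes Lrp5 (8.61 ± 0.19, SD, n = 3) and Lrp6 (9.19 ± 0.03) and their relative Lrp4 (8.65 ± 0.30). Dkk1, Dkk4 or Sostdc1 proteins act on the products of these genes. The Dishevelled genes Dvl1 (7.19 ± 0.31) and Dvl2 (8.20 ± 0.18), whose products the Naked proteins bind, were above background too.

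Other inhibitors inside the cell were above background in 15 of 15 cases, with a median excess of 2.54. Among them Axin1, the constitutive relative of Axin2, stood at 9.13 ± 0.17 (SD, n = 3). The scaffold gene Apc stood at 9.59 ± 0.08 and its relative Apc2 at 7.51 ± 0.28. The kinase genes of the destruction complex Gsk3a and Gsk3b stood at 8.79 ± 0.34 and 11.04 ± 0.28.

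Other antagonists outside the cell were above background in 8 of 15 cases, with a median excess of 0.47. The secreted Frizzled-related genes Sfrp1 (9.13 ± 0.47, SD, n = 3), Sfrp2 (10.19 ± 0.20) and Sfrp5 (7.72 ± 0.69) were called, and their relative Frzb (5.88 ± 0.36) was not. Sfrp5 had 8.21, 8.03 and 6.93 on replicates 1, 2 and 3, lowest on replicate 3 as Notum was. The list as a whole did not share this: its median difference of replicate 3 from the mean of the others was -0.0. Of the Dickkopf family, Dkk3 (7.74 ± 0.12) was called, and Dkk2 (6.45 ± 0.32) and Dkkl1 (6.45 ± 0.54) were not. Draxin, a secreted antagonist known from axon guidance, stood at 6.72 ± 0.09 and was called. Against the antigenomic control, 4 of the 15 were called.

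Other genes that Wnt signalling induces in at least 1 tissue were above background in 13 of 17 cases, with a median excess of 1.97. The 17 include Lgr5, the gene of the sort. Rnf43 and Znrf3 encode ubiquitin ligases that remove Frizzled receptors, another arm of the feedback. Znrf3 read 8.43, 8.52 and 10.66 (log2, replicates 1, 2 and 3), and Rnf43 read 7.17, 7.34 and 8.33. Both were highest on replicate 3, as were Lef1, a transcription factor gene of the pathway (8.93, 9.15 and 9.81), and Lgr5 (9.99, 10.04 and 10.78). Of the 13 called genes, 10 were higher on replicate 3 than the mean of the others, against 68.2% of all genes above background. These differences are on the deposited scale, where the array median was 6.52 on replicate 3 and 6.25 on replicates 1 and 2. The 3 lower ones, named after their values were seen, were Ephb3 (-0.81), Tnfrsf19 (-0.29) and Myc (-0.07). Over the 13 called genes the median difference was 0.76, against 0.26 over all genes above background. Over all 17 measured genes of the list the median difference was 0.22, the same as over all genes tested (0.22). Ascl2, a Wnt target gene of the intestine, stood at 7.26 ± 0.11 (SD, n = 3). The intestinal homeobox genes Cdx1 (4.95 ± 0.09) and Cdx2 (6.55 ± 0.13) were not above background. On the same array the epithelial list was higher by a median of 0.61 and the mesenchymal list lower by a median of 0.19 than the mean of the other arrays. Their part in these differences was not tested.

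**Figure D4:**
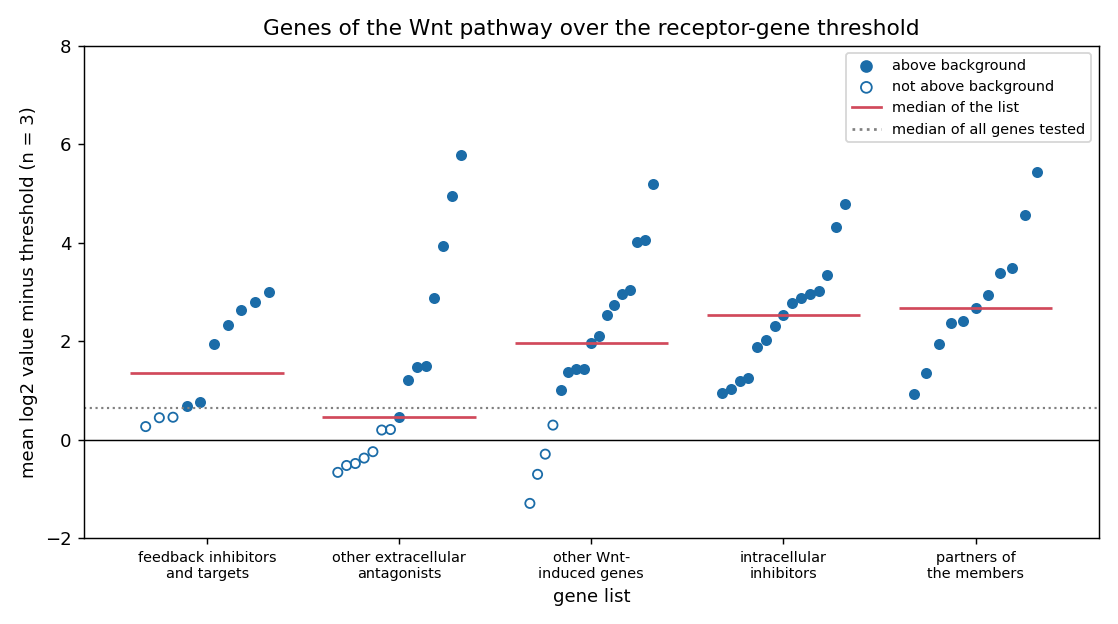
Mean log2 value minus the receptor-gene threshold (y axis, n = 3 arrays) for each gene of 5 lists (x axis), with the median of each list as a red line and that of all genes tested as a dotted line (0.64). Filled points are above background. All points of the intracellular inhibitors and of the partners are filled, and 3 of the 10 feedback and target genes are open.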

How the data were processed

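RNA of 3 sorted pools was amplified for 25 cycles and hybridised, per the labels' protocols. The authors deposited 1 log2 value for each probe set and array. Per the submitters' processing notes they used RMA and affy, and versions and settings are not given in the sources used here. RMA compresses differences of weak probe sets, and joint normalization of the arrays is not stated. A table of the platform annotation named the probe sets. A gene took its probe set of highest mean. For each gene, log2 value minus threshold was tested against 0 (limma 3.58.1 in R 4.3.3, one-sided, empirical Bayes with a mean-variance trend, Benjamini-Hochberg adjustment). The threshold's own uncertainty was left out. Levels of different genes were not ranked. The number of arrays limited the precision. In simulated data (17097 genes), 80% of genes set 0.5 over the threshold and 98% of those set 2 over it were called. Of the genes simulated at or below it, 0.245% were called. These genes kept their own levels, so this share is not an error rate for genes near the threshold. The simulated noise was independent between arrays, without the shared difference of replicate 3, so the shares may not carry over to these data.

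The members and lists were chosen with earlier results of these data known. The text names all members, the epithelial markers Lgr5, Itga6, Krt5, Krt14 and Epcam, the first 5 called and first 3 other genes of each pathway list, and up to 2 of each in the cell type lists. Python 3.11.15, numpy 2.4.6, pandas 2.3.3 and matplotlib 3.10.9 were used besides R. Of 16 alternative settings, 3 were chosen after seeing the data.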

Additional observations from a re-analysis of the deposited data

How the results depend on the processing

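Axin2, Nkd1, Nkd2, Dkk4 and Sostdc1 kept direction and call in each of 16 alternatives. With tissue-restricted genes as background, the excess was -0.74 for Dkk1, -0.24 for Notum, -0.33 for Kremen1, -0.56 for Wif1 and -0.55 for Sp5. With the brightest antigenomic control it was -0.87, -0.37, -0.45, -0.68 and -0.68 for the same genes. These thresholds were brighter on every array (7.22 to 7.48, against 6.22 to 6.29). Dkk1 was also at -0.09 with the 99th percentile and at -0.45 with the mean of its probe sets. Under the tissue-restricted and the antigenomic threshold, the other extracellular antagonists above background numbered 5 and 4, the other Wnt-induced genes 7 and 7, and all genes 5722 and 5399, against 8, 13 and 8984 in the main setting. The intracellular inhibitors numbered 11 and 11, against 15, and the partners 9 and 9, against 11. Of the named genes of those lists, Apc2 and Dvl1 were not above the antigenomic control. Leaving out 1 array at a time gave 5 to 9 of the 10 genes, 10 to 16 of their probe sets, 7 to 9 antagonists, 13 to 14 induced genes, 15 intracellular inhibitors, 11 partners and 8553 to 9649 of all genes. The averaged replicates, the 74 receptor genes and the set without probe sets named x or s were chosen after seeing the data. Probe sets named a measure Notum and Wif1, which had no value without them. No paired analysis was possible because there was 1 group.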
